A study of Mus musculus with 4 samples.

Results

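The genes described here are 8 markers of the epicardium and of mesothelium, the flat epithelium that covers the heart and lines the body cavities: Wt1, Upk3b, Upk1b, Msln, Aldh1a2, Krt19, Krt8 and Lrrn4. They were chosen by name as textbook markers, with earlier results of these data known. They are 8 of the 21755 protein-coding genes in the mouse annotation used (GENCODE M21, build mm10, Y-linked and mitochondrial genes left out). Open chromatin was mapped by ATAC-Seq, in which the Tn5 transposase cuts accessible DNA, in nuclei sorted from whole hearts of male Cdh5-Cre/NuTRAP mice on a C57BL/6 background, aged 8 to 12 weeks. The Cre recombinase, driven by the promoter of the endothelial cadherin Cdh5, switches on the NuTRAP transgene in all samples, so that nuclei of endothelial cells (ECs) and their descendants carry GFP. The endothelial group (GFP+) and the non-endothelial group (GFP-) had 2 libraries each, from 100 to 50000 nuclei and with 2.5 µL of Tn5 per 50000 nuclei according to the labels. In the labels the groups differ in the sort gate alone. The number of nuclei is given only as this range, so the input of each library is not known. The comparison asked whether a minor cell type of the heart shows at its marker genes in the GFP- peaks.

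The epicardium is a single layer of mesothelial cells that gives rise, in the embryo, to many cardiac fibroblasts and mural cells, and it becomes largely quiescent in the adult. Wt1 encodes a zinc finger transcription factor that marks it, and Aldh1a2 encodes the retinaldehyde dehydrogenase with which it makes retinoic acid. Upk3b and Upk1b encode uroplakins, membrane proteins best known from the bladder lining, Msln encodes mesothelin, a protein anchored to the mesothelial cell surface, Krt8 and Krt19 encode keratins of simple epithelium, and Lrrn4 encodes a membrane protein with leucine-rich repeats. An active promoter is usually open round its transcription start site (TSS), while open regions in introns and flanks often hold enhancers.

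The GFP- list held 78912 peaks over 52.1 Mb and the GFP+ list 65008 peaks over 41.8 Mb. Each list was called from both libraries of its group together, so no value below has a replicate error, and intervals cover counting error only. Each peak was ranked within its own list by its area, which the peak caller sums along the peak from the significance above its threshold, from 0 for the smallest to 100 for the largest. The labels were set beside start peaks of marker genes, where a start peak is one that touches an annotated TSS or the 250 bp to either side. These markers were chosen with earlier results of these data known, so they give no independent check of the labels. All 8 endothelial markers had a GFP+ start peak and 5 of 8 a GFP- one. By 20 points or more, 6 ranked higher in GFP+ and 1, Tek, ranked lower, at 54.1 against 81.1 in GFP-. The 6 were Pecam1 (66.9), Emcn (61.7) and Erg (57.5) in GFP+ alone, and Cdh5, Tie1 and Egfl7 in both. Cdh5 stood at rank 85.3 in GFP+ and 18.0 in GFP-, Tie1 at 87.9 and 48.3, and Egfl7 at 98.7 and 72.6. All 8 cardiomyocyte markers had one in both lists. According to the study's methods the sort first kept single, non-dividing nuclei by DNA content and scatter, so GFP- holds the nuclei without GFP among these. In such a mixture fewer nuclei of a type and less opening per nucleus cannot be told apart.

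Of the epicardial and mesothelial genes, Aldh1a2 has a start rich in CpG dinucleotides, and it is one of the 2 with open chromatin there. The 250 bases before the start of Aldh1a2 and Upk3b, written in the direction of transcription with each CG in capitals, show the contrast between a start with a peak, rich in CpG, and a start without one that is poor in it. The RefSeq promoter table (GRCm38.p6, the same sequence as mm10) held 4 of the 8 genes, and the RefSeq starts of Krt8 and Lrrn4 lie inside the gene as GENCODE draws it, so that their stretches run partly within the gene and are not printed. The Aldh1a2 promoter (chr9:71215539-71215788, plus strand) held 40 CG, the Upk3b promoter (chr5:136038246-136038495, plus strand) 2, and the stretches before the RefSeq starts of Krt8 and Lrrn4 held 3 and 5, against a median of 6 over 32851 promoters. A CG count as high as that of Aldh1a2 was found in 1.31% of them, and one as low as that of Upk3b in 29%.
Aldh1a2 promoter: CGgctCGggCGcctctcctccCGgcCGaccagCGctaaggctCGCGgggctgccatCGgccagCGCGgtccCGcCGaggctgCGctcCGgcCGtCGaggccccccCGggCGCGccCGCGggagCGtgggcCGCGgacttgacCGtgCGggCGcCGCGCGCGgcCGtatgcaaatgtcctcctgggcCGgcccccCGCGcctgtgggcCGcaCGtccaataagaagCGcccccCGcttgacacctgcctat
Upk3b promoter: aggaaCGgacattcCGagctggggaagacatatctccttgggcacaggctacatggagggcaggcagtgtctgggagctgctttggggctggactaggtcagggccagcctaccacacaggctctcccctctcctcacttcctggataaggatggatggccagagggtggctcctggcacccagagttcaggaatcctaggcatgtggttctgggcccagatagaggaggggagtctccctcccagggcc

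The distal peaks on which the comparison of the lists turns are shown by the 300 bases round their summits, on the plus strand, with the letters of searched transcription factor words in capitals. The first is the Wt1 intron peak that ranked far higher in GFP+ (chr2:105134405-105134704), the second the strongest Aldh1a2 flank peak, found in both lists (chr9:71317155-71317454), and the other two are GFP- peaks with no GFP+ peak on them, in the flanks of Aldh1a2 (chr9:71319845-71320144) and Krt8 (chr15:102010552-102010851). The Wt1 window held the TEAD word GGAATG at 2 places and the KLF and SP word GGGCGG at 1. The shared Aldh1a2 window held 2 E-boxes CAGCTG, the word of TCF21, and the Krt8 window held 1. The GFP- Aldh1a2 window held none of the 7 words searched.
Wt1 intron, GFP+ summit: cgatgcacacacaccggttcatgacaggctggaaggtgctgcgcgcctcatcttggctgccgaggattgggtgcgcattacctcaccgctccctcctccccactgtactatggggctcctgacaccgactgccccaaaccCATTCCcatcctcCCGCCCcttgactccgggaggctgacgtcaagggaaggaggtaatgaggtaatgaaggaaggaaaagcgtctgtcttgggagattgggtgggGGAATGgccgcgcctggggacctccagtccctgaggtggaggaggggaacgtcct
Aldh1a2 flank, shared, GFP- summit: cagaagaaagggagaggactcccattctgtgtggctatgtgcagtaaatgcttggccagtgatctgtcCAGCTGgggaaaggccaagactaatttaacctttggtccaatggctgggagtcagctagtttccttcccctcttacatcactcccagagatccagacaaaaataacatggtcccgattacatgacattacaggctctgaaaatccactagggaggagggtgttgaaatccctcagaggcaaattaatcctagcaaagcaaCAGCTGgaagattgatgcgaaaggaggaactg
Aldh1a2 flank, GFP- without a GFP+ peak: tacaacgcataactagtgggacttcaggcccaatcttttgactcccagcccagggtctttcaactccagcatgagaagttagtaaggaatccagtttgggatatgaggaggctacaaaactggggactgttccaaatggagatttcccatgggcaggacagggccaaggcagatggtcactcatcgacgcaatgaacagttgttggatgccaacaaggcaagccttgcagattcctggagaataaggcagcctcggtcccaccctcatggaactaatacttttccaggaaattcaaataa
Krt8 flank, GFP- without a GFP+ peak: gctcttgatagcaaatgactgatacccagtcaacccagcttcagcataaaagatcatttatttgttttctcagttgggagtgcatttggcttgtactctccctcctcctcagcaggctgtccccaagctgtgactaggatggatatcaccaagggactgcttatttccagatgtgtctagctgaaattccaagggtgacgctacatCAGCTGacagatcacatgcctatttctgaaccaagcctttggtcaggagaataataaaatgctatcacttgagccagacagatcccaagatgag

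At the gene starts, open chromatin was found at Wt1 and Aldh1a2 and at none of the other 6 genes, in GFP- and GFP+ nuclei alike. That is 2 of 8 genes in each list (25%, with a Wilson 95% interval of 7.15 to 59.1). Over the whole annotation the share was 61.8% in GFP- and 59.8% in GFP+. No gene of the 8 had a start peak in GFP- alone, which allows a share of up to 32.4% at this number of genes, where 2.95% of all genes did. None had one in GFP+ alone, where 0.915% of all genes did. The starts of Upk3b, Upk1b, Msln, Krt19, Krt8 and Lrrn4 thus had no peak at this depth in either population. The nearest GFP- peak lay 974 bp from the start of Krt8, 7572 bp from Upk3b, 12239 bp from Upk1b, 17517 bp from Msln, 20430 bp from Krt19 and 21747 bp from Lrrn4. In GFP+ the nearest peak to Krt19 was much closer, at 344 bp, and that to Krt8 lay 1193 bp away.

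The 2 open starts differed between the populations in opposite directions. Wt1 ranked higher in GFP+ than in GFP- by 21.3 points, a gap of 20 or more that 1.94% of the 13643 genes with a start peak showed in that direction. Aldh1a2 ranked lower in GFP+, with a difference of -32.8 points, and 7.33% of these genes were lower by 20 or more. The median difference over all these genes was -0.81 points, and over the 2 members -5.77, the middle of 2 values of opposite sign.

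Wt1 (ENSMUSG00000016458.14, chr2:105126529-105173616, plus strand) ranked higher by area in the endothelial list at each of its shared peaks. Its start peak spanned chr2:105126285-105127609 in GFP-, with an area of 1061 (-log10 p times bp) and a -log10 p of 4.83 at the summit, and took position 30182 by area, a rank of 61.8. In GFP+ it spanned chr2:105126332-105128416, with an area of 2503 and a -log10 p of 5.93, position 11024 and rank 83.0. The GFP+ peak was the longer, at 2085 against 1325 bp, and both also covered starts of Wt1os, the antisense RNA of the locus, from which ATAC-Seq cannot tell Wt1 apart because it has no strand. Per bp of length both peaks were low in their lists, at ranks 8.35 in GFP- and 27.6 in GFP+, so these were broad and shallow regions.

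The wider gaps at Wt1 lay inside the gene. At the second group of starts, with the GFP- summit 3872 bp into the gene, the GFP- peak (chr2:105130279-105130587) had an area of 208, next to the lowest area of 200 in either list, and rank 1.44, while the GFP+ peak (chr2:105130186-105131165) stood at rank 64.9. In the intron, at the peak with its GFP- summit 7954 bp into the gene and its sequence printed above, GFP- ranked 14.8 and GFP+ 74.9. GFP+ nuclei had a further intron peak 2416 bp into the gene at rank 12.7 (chr2:105128669-105129114) that GFP- nuclei lacked. Upstream, in an intron of Wt1os (chr2:105108764-105109175 in GFP-), the ranks were 62.6 in GFP- and 75.4 in GFP+, the highest GFP- rank in the locus. All 4 GFP- peaks therefore had a GFP+ partner, none was found in GFP- alone, and 3 of the 4 pairs ranked higher in GFP+ by 20 points or more, with a median of 40.7 over the 4. Neighbouring peaks of a gene are not independent of each other.

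**Figure D1:**
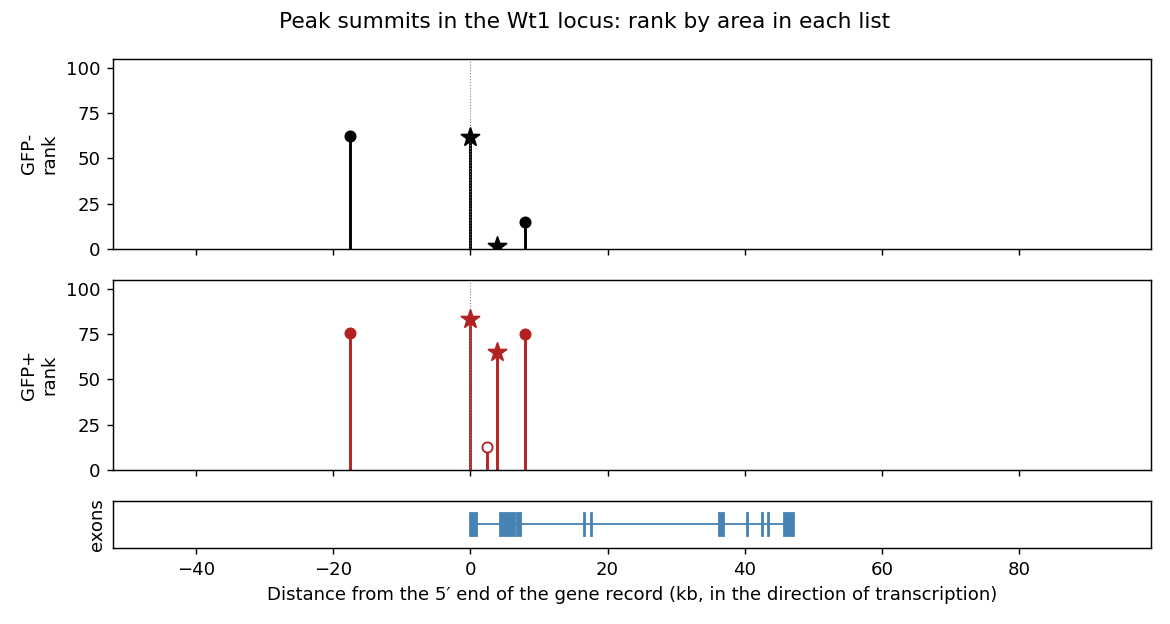
Peaks of the Wt1 locus by the distance of their summit from the 5′ end of the gene (kb, x axis) and by rank of area in their own list (0 to 100, y axis), with GFP- in the upper and GFP+ in the middle panel and the exons below; stars touch a Wt1 start and the open circle has no partner in the other list. The start peak stands at 61.8 in GFP- and 83.0 in GFP+, and the rightmost peak, in an intron, at 14.8 and 74.9.

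Aldh1a2 (ENSMUSG00000013584.5, chr9:71215789-71296243, plus strand) showed the reverse, with a larger start peak and more flank peaks in non-endothelial nuclei. The GFP- start peak (chr9:71215234-71216697, 1464 bp) had an area of 2000, a -log10 p of 6.36, position 17516 and rank 77.8. The GFP+ peak (chr9:71215234-71215663, 430 bp) began at the same base but ended 126 bp before the start, with an area of 609, a -log10 p of 5.11, position 35776 and rank 45.0. The order of the populations depended on the ranking measure. By -log10 p of the summit GFP- was again the higher, at 60.3 against 42.6, whereas by area per bp of length GFP+ was, at 38.3 against 34.1. Beyond the start peak, no peak of either list lay in the gene body of 80455 bp.

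The highest-ranked peak of the Aldh1a2 locus was the first of 4 GFP- peaks downstream of the gene, with summits from 101516 to 106290 bp beyond its start and Aldh1a2 as the nearest protein-coding start. This peak (chr9:71316800-71318202 in GFP-) ranked 88.8 in GFP- and 74.4 in GFP+ and was of like length in both, 1403 and 1406 bp. Next to it stood a GFP- peak of 710 bp (chr9:71319799-71320508) at rank 70.5 with no GFP+ peak on it, the highest-ranked such peak in any of the 8 loci. Further GFP- peaks without a partner had ranks of 5.86 and 17.7 beside it, and 19.2 in an intron of the water channel gene Aqp9 upstream. An upstream peak in an intron of Gm32511 (chr9:71188715-71189496 in GFP-) ranked 67.8 in GFP- and 49.3 in GFP+. Every GFP+ peak in the locus, 3 in all, thus had a GFP- partner of higher rank, and 4 of the 7 GFP- peaks had no partner. Over the whole lists 30.3% of GFP- peaks had none, and overlapping pairs had a median difference of -1.67 points.

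**Figure D2:**
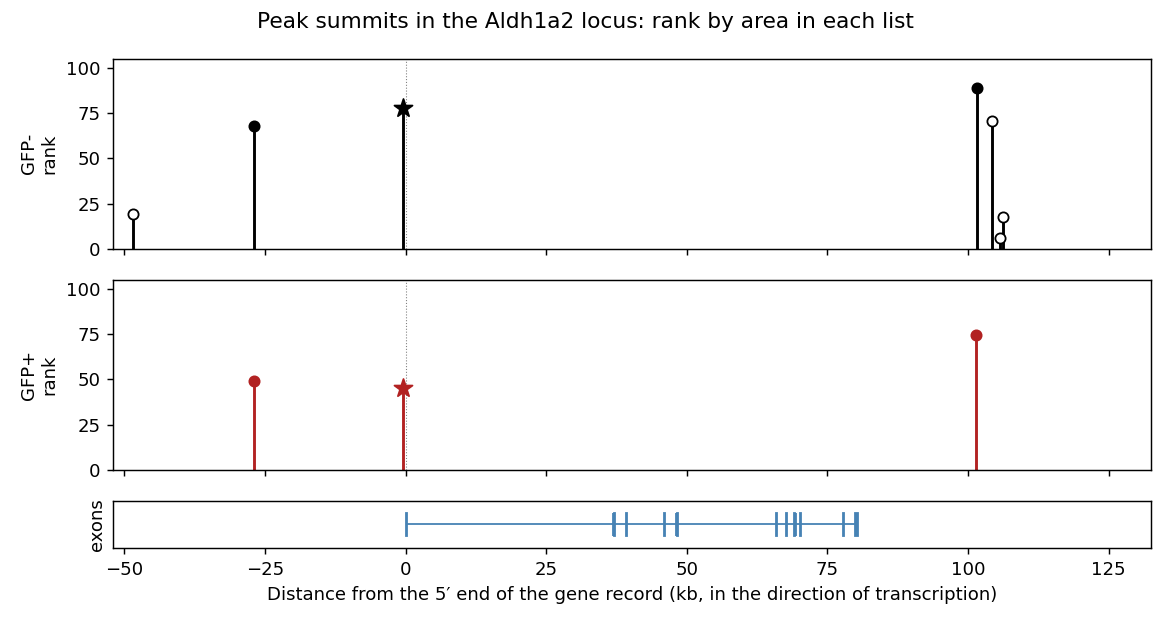
Peaks of the Aldh1a2 locus, drawn as for Wt1: distance of the summit from the 5′ end in kb on the x axis, rank by area (0 to 100) on the y axes, GFP- above and GFP+ below, open circles for peaks without a partner in the other list. GFP- has 7 peaks, with the start peak at 77.8 and a peak without a partner at 70.5, and GFP+ has 3, with the start peak at 45.0.

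The keratin genes had no open start, yet Krt8 lay among strong peaks that both populations shared. Krt8 (ENSMUSG00000049382.10, chr15:101996698-102004482, minus strand) had 11 GFP- and 12 GFP+ peaks in its locus, the gene with 50 kb on each side, more than 71.2% and 80.3% of all genes. Its highest GFP- peak (chr15:101975258-101977997, 2740 bp), 26986 bp downstream of the start and between genes, ranked 95.04, and the GFP+ peak there 90.6. A peak 20047 bp downstream ranked 91.5 and 90.8. Within the gene, 1 intron peak 1371 bp from the start ranked 55.9 in GFP- and 59.1 in GFP+. The GFP- edge of this peak comes within 1000 bp of the start and the GFP+ edge does not, so that with a window of 1000 bp Krt8 would count as open in GFP- alone, and Krt19 in GFP+ alone. A GFP- peak 6220 bp upstream (chr15:102010604-102011190) at rank 62.4 had no GFP+ peak on it, and a GFP+ peak at rank 5.25 no GFP- one. Krt18, the keratin partner of Krt8, lies in the same locus and had no start peak in either list.

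Krt19 (ENSMUSG00000020911.14, chr11:100140810-100148665, minus strand) had the fewest peaks, 2 in each list. Its GFP- peaks, at ranks 34.2 and 10.4 and with summits 20553 and 20908 bp upstream, both lay under a single GFP+ peak of rank 57.02. The other GFP+ peak (chr11:100149009-100149280) was weak, at rank 19.8, and lay 456 bp upstream of the start by its summit, where GFP- had none. No Krt19 peak was found in GFP- alone.

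The uroplakin genes had no start peak in either population, and the highest-ranked peak near each of them lay at the start of a neighbour. Upk3b (ENSMUSG00000042985.7, chr5:136038496-136046487, plus strand) had 7 GFP- and 5 GFP+ peaks. The highest lay at the starts of Rasa4 (88.96 in GFP- and 84.9 in GFP+) and Dtx2 (81.0 and 80.9). The peak inside Upk3b, in an exon 7714 bp from the start, was weak in both lists, at 11.5 in GFP- and 29.7 in GFP+. GFP- peaks without a partner stood 13218 bp downstream of the start (chr5:136051516-136051940, rank 52.1), where the related Upk3bl has the nearest start, and in an intron of Dtx2 (rank 34.1). A peak between genes, with Rasa4 as the nearest start, ranked 12.7 in GFP- and 58.9 in GFP+.

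Upk1b (ENSMUSG00000049436.5, chr16:38773184-38800328, minus strand) had 3 GFP- and 6 GFP+ peaks and none within the gene. The highest GFP- peak, at the start of the galactosyltransferase gene B4galt4, ranked 80.8, and the GFP+ peak there 80.6. All 3 GFP- peaks had GFP+ partners, while 3 GFP+ peaks had none, at ranks 70.8, 51.3 and 48.1, where 13.4% of all GFP+ peaks had none. A peak on the far side of B4galt4 stood at 31.97 in GFP- and 70.5 in GFP+, and the upstream peak nearest to Upk1b at 35.9 and 29.6. The locus thus held more GFP+ than GFP- peaks.

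At Msln and Lrrn4 the populations had nearly the same peaks. Msln (ENSMUSG00000063011.7, chr17:25748613-25754378, minus strand) lies among many genes, and all 10 peaks of each list had a partner in the other, 6 of them at starts of neighbours. The highest, at the starts of Chtf18 and Rpusd1, ranked 94.9 in GFP- and 92.6 in GFP+, and no peak lay in Msln itself. Lrrn4 (ENSMUSG00000043110.2, chr2:132868305-132880891, minus strand) had 4 peaks in each list, 3 of them shared. Its highest, at the starts of Crls1, the cardiolipin synthase gene, and Gm14104, ranked 85.0 and 84.4. The GFP- peak without a partner, in an intron of Fermt1, was near the bottom of its list at rank 6.14, and so was the GFP+ one at 0.92.

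**Figure D3:**
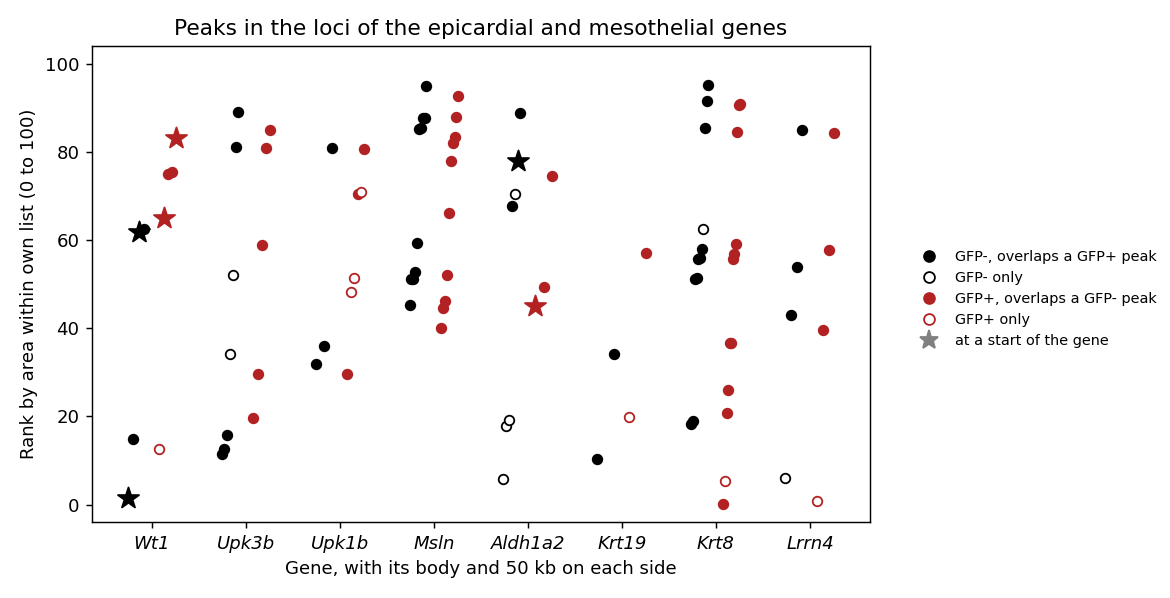
Rank by area of each peak in its own list (0 to 100, y axis) for the 8 genes with 50 kb on each side (x axis), GFP- in black and GFP+ in red, filled where the peak overlaps one of the other list, open where it does not, and a star where it touches a start of the gene. Stars are seen at Wt1 and Aldh1a2 alone, and 4 of the 8 open black circles lie in the Aldh1a2 locus.

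Over the 8 loci together, with all peaks kept and any overlap of 1 bp counted, peaks in GFP- alone made up a smaller share than in the whole list. All 10 GFP- peaks at starts of neighbours were shared. Of 48 GFP- peaks, 40 shared 1 bp or more with a GFP+ peak (83.3%, 70.4 to 91.3) and 8 did not (16.7%, 8.70 to 29.6), against 30.3% of all GFP- peaks. Among the 19 GFP- peaks for which the member had the nearest protein-coding start, 14 had a partner (73.7%) and 5 did not, a share in GFP- alone nearer to that of the whole list. Of 47 GFP+ peaks, 7 overlapped no GFP- peak (14.9%, 7.41 to 27.7), against 13.4% of all GFP+ peaks. The 8 GFP- peaks without a partner were 4 at Aldh1a2, 2 at Upk3b, 1 at Krt8 and 1 at Lrrn4, and the 7 GFP+ ones were 3 at Upk1b and 1 each at Wt1, Krt19, Krt8 and Lrrn4. By place, 5 of the 8 GFP- peaks lay between genes and 3 in introns of neighbours, and none in a start, exon or intron of the 8 genes. The overlapping pairs numbered 40, with a median difference of -0.65 points, against -1.67 over all 54989 pairs. Pairs were counted once for each GFP- peak, with the highest-ranked GFP+ peak on it. Of the 40, 7 ranked higher in GFP+ by 20 points or more, where 6.28% of all pairs did, and 1 ranked lower, the Aldh1a2 start, where 11.8% of all pairs did. The 7 were 3 at Wt1, 2 at Krt19 that share a GFP+ peak, 1 at Upk3b and 1 at Upk1b. A second, smaller GFP+ peak of rank 20.8 (chr15:101975817-101976374) on the Krt8 peak of rank 95.04 is outside this count, with a difference of -74.3 points.

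Peaks that touched an intron were found in few of the genes. In GFP- they numbered 5, with 3 in Wt1, 1 in Aldh1a2, which is its start peak, and 1 in Krt8, so 3 of 8 genes had one, against 61.9% of all protein-coding genes. In GFP+ they numbered 5 as well, 4 in Wt1 and 1 in Krt8, and 2 of 8 genes had one, against 59.6%. Start peaks that reach into an intron count here, in the 8 genes and in all genes alike, so these shares are not separate from the start counts. Leaving out peaks at starts, the GFP- list had 2 intron peaks, in Wt1 and Krt8, and no share of all genes is given for that rule. The number of peaks per locus was within the usual range, since it ran from 2 to 11 in GFP- with 6 as the median over all genes, and from 2 to 12 in GFP+ with a median of 5.

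The base composition of the starts moved with these counts. The ratio of observed to expected CpG in the 250 bp to either side of the 5′ end was 1.05 at Aldh1a2 and 0.554 at Wt1, and from 0.0907 at Upk3b to 0.315 at Krt8 in the other 6 genes, against a median of 0.591. Of the 10740 genes with a ratio of 0.6 or more, 90.9% had a GFP- and 89.6% a GFP+ start peak, and Aldh1a2 is the one member among them. Of the 11015 genes under 0.6, 33.5% and 30.7% had one, and of the 7 members there 1 did, Wt1, in both lists. The part of CpG content in the low count of open starts was not tested.

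**Figure D4:**
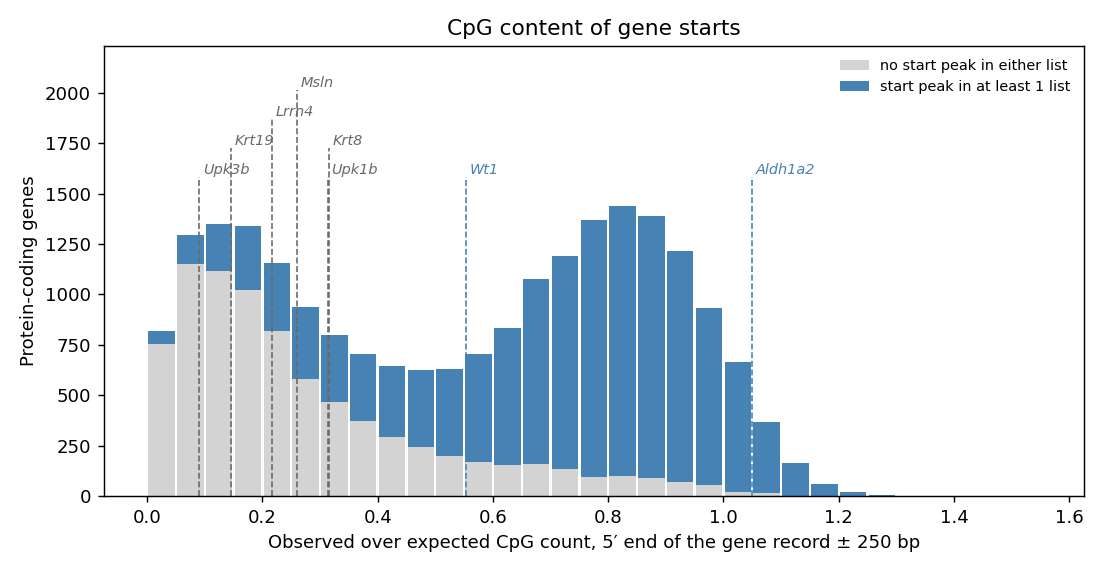
Number of protein-coding genes (y axis) by the ratio of observed to expected CpG at the 5′ end ± 250 bp (x axis), blue where a start peak was found in at least 1 list and grey where in neither; dashed lines mark the 8 genes in the same colours. Aldh1a2 at 1.05 and Wt1 at 0.554 are blue, and the other 6 lie at or below 0.315, where most genes are grey.

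Genes related to the 8 by function gave a mixed picture. Among 12 transcription factors, signals and surface proteins of the epicardium, 11 had a start peak in GFP- (91.7%, 64.6 to 98.5) and 8 in GFP+ (66.7%, 39.1 to 86.2). Over all protein-coding genes the shares were 61.8% and 59.8%, with 2.95% in GFP- alone and 0.915% in GFP+ alone. A CpG ratio under 0.6 was found at 4 of these 12 genes and at 7 of the 8 members. The epicardial genes with a start peak in GFP- alone were Tcf21, Itga4 and Bnc1. Tcf21, a factor of epicardial cells and of cardiac fibroblasts, stood at rank 83.8. The integrin subunit gene Itga4 stood at 59.9 and Bnc1, a zinc finger factor of mesothelium, at 13.7, and only Rspo1 had no start peak. The other 8 had a start peak in both lists, with ranks given first for GFP- and then for GFP+. Gata4 (99.6 and 94.3), Gata6 (99.8 and 99.7), Tbx18 (94.5 and 78.9), Bnc2 (91.0 and 84.8) and Scx (93.6 and 88.2) ranked lower in GFP+. Podxl (75.4 and 87.5), Tgm2 (94.9 and 99.1) and Sema3d (71.3 and 73.5) ranked higher in GFP+. Of 12 further surface and secreted genes of mesothelium, 6 had a GFP- start peak (50%, 25.4 to 74.6) and 5 a GFP+ one (41.7%, 19.3 to 68.1), intervals that hold the shares of all genes. In GFP- alone they were the complement gene C3 (45.8) and Efemp1 (22.4), and in GFP+ alone Pkhd1l1 (18.0). Rarres2, which encodes the secreted protein chemerin, ranked 82.3 in GFP- and 5.77 in GFP+ and Nkain4 41.0 and 6.41, while Calb2, Dmkn, Gpm6a, Muc16 and Slpi had no start peak. Several of these genes, such as Tcf21 and C3, are also expressed by fibroblasts, and of 8 fibroblast markers 6 had a start peak in GFP- and 2 in GFP+. Which cell type gave the start peaks of these genes was not tested.

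Genes of the same families and of the retinoic acid pathway were read in the same way. The simple keratins Krt7, Krt18 and Krt20 had no start peak in either list, and of the uroplakins Upk1a, Upk2, Upk3a and Upk3bl only Upk2 had one, at 64.4 in GFP- and 63.9 in GFP+. Of 13 genes of the retinoic acid pathway, in which Aldh1a2 makes the ligand, 8 had a start peak in GFP- and 7 in GFP+. These shares, 61.5% and 53.8%, lay near the 61.8% and 59.8% of all protein-coding genes. Aldh1a1, another retinaldehyde dehydrogenase, had one in GFP- alone, at rank 74.2, and the third, Aldh1a3, in both at 56.7 and 46.0. Cyp26b1, which degrades retinoic acid, ranked 50.6 in GFP- and 71.4 in GFP+, the sole gene of the 13 that was higher in GFP+ by 20 points. The receptors Rara, Rarb and Rarg were open in both, at 90.1 or above, and the binding proteins Crabp1 and Crabp2 in neither.

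Markers of other cell types differed widely in how many had a start peak. Nuclei of any type that descends from ECs would carry GFP, so a type need not lie in the GFP- mixture alone. All 8 mural markers, of pericytes and smooth muscle, had a GFP- start peak and 4 a GFP+ one, with Pdgfrb (83.0), Acta2 (27.7), Rgs5 (16.2) and Tagln (7.99) in GFP- alone and Kcnj8 at 83.4 against 49.1. The fibroblast genes in GFP- alone were Col1a2 (78.3), Dcn (66.1), Dpt (51.5) and Col3a1 (45.1). Over all protein-coding genes 61.8% had a start peak in GFP- and 59.8% in GFP+, and 2.95% had one in GFP- alone. Of 8 macrophage markers, by contrast, 1 had a start peak, Cd68 at 31.8 in GFP- and 16.8 in GFP+, and of 8 lymphocyte markers none did in either list. Of 8 Schwann and glial markers 3 had one in both lists, of which Erbb3 ranked 78.4 in GFP- and 29.1 in GFP+. Of 8 genes of epithelia in other organs, 3 had a start peak in GFP- and none in GFP+, all of low rank: Epcam (16.6), Cldn7 (16.3) and Trp63 (4.91). In GFP- the 8 epicardial and mesothelial genes, at 2 of 8, lay between the macrophage markers at 1 and the Schwann and epithelial ones at 3, and in GFP+ they had the count of the fibroblast markers, and no difference between lists of genes was tested.

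**Figure D5:**
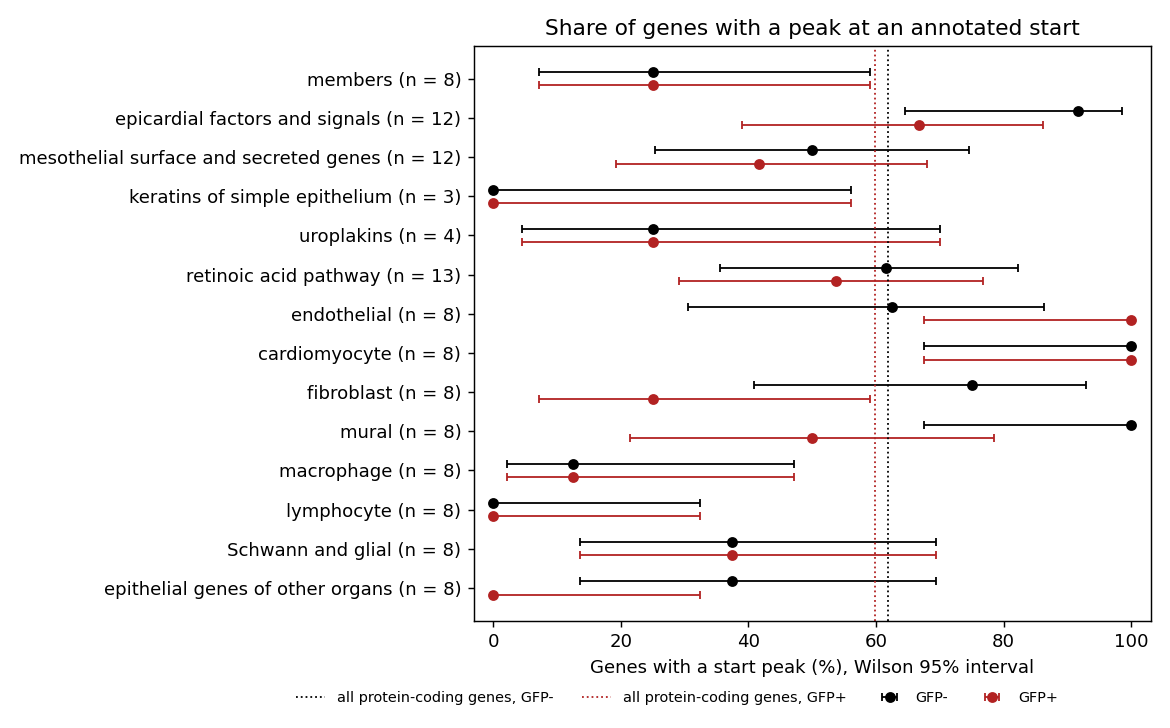
Share of genes with a start peak (%, x axis) in each list of genes (y axis, n genes each), GFP- in black and GFP+ in red, with Wilson 95% intervals, and dotted lines for all protein-coding genes (61.8% and 59.8%). The 8 members lie at 25% in both populations, while fibroblast and mural markers lie at 75% and 100% in GFP- and at 25% and 50% in GFP+.

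The sequences round the summits of the 8 loci were searched for 7 short words on both strands, and the share of windows with each was set beside that of all windows of the list. Of the 48 GFP- windows, 12 held the E-box CAGCTG (25%, against 27.4% of all GFP- windows), 6 the AP-1 word TGANTCA (12.5% against 12.7%) and 2 the WT1 and EGR word GCGTGGG (4.17% against 3.35%). The GATA word AGATAA was in 2 windows (4.17% against 13.4%), the TEAD word GGAATG in 4 (8.33% against 18.6%) and the ETS word CAGGAAGT in none (against 3.75%). The KLF and SP word GGGCGG was in 16 (33.3% against 19.9%), and in 18 of the 47 GFP+ windows (38.3% against 22.4%). A match describes letters and not binding. The printed Aldh1a2 promoter held the WT1 and EGR word, and that of Upk3b the TEAD and ETS words.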

How the data were processed

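ATAC-Seq libraries of 2 GFP- and 2 GFP+ sorts of heart nuclei were grouped by their labels. According to the study's methods and the submitters' processing notes, the authors used fastp for trimming, Bowtie2 for mapping to mm10 (2.3.5.1 in the notes, another version in the methods), SAMtools 1.19 for filtering and Picard for duplicates, downsampled the reads, and called peaks with Genrich on both replicates of a population together, leaving out mitochondrial reads and blacklisted regions. The methods place downsampling before mitochondrial reads were left out, so the depth of nuclear reads may still differ between the lists. Whether depth bears on the number of peaks was not tested.

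The signal value deposited for each peak is Genrich's area, the significance (-log10 p) above the caller's threshold added up over the bases of the peak, and not read pileup. Summit significance was deposited as a -log10 p-value, so both ranking measures come from significance. The deposited score, area per bp as the caller scales it, was not used, since 83.9% of GFP- and 82.0% of GFP+ peaks reach its limit of 1000, and the q-value column holds -1 throughout. Read counts per library are not analysed here, so no test was made and no p-value is given.

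Peaks were ranked by area within each list. A start peak overlaps an annotated TSS ± 250 bp (GENCODE M21), a locus is the gene ± 50 kb, a shared peak overlaps by 1 bp or more, and an intron lies between merged exons. A gene without a start peak in one list counts as rank 0 there in median differences. Shares have Wilson 95% intervals. All 8 members are named, with the highest-ranked GFP- peak and GFP- peak without a partner in each locus. Genes of other lists are named where a start peak was in 1 list alone or the ranks differed by 20 points, and some further genes as examples. The members and the lists were chosen with earlier results of these data known. Alternatives changed the window, starts, flank, overlap, ranking measure, intron rule and smallest area. The scripts (Python 3.11.15, pandas 2.3.3, scipy 1.17.1, pysam 0.24.0) were tested on simulated peak lists.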

Additional observations from a re-analysis of the deposited data

How the results depend on the processing

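The 2 open starts, Wt1 and Aldh1a2, were found in both lists with 5′ ends alone, with a window of 1000 bp and with the GFP- list limited to the length of the GFP+ list, but not in GFP+ when only peaks at or above the median area of each list were kept: then 1 member had a GFP+ start peak and 1, Aldh1a2, a GFP- one alone. A start window of 1000 bp also gave 1 member in GFP- alone, Krt8. The median start difference of -5.77 points rests on 2 genes of opposite direction and turned to 1.99 with ranks by -log10 p, to 11.8 with area per bp and to 0.691 with the GFP- list limited to the length of the GFP+ list, an alternative chosen after seeing the data. The 48 GFP- peaks of the loci became 9 with flanks of 10 kb, 88 with 100 kb, 30 with peaks at or above the median area and 19 where the member had to have the nearest protein-coding start. The shares of peaks with a partner fell from 83.3% to 68.8% in GFP- and from 85.1% to 70.2% in GFP+ with an overlap of 50% of both peaks, and to 66.7% and 71.4% with peaks at or above the median area. Whole-list shares are not given at these settings, so the comparison of the loci with the whole lists holds for the main setting only. The 5 GFP- intron peaks became 3 with peaks at or above the median area, 3 with the summit in an intron, 3 in the limited GFP- list and 2 off every start. Each follows from fewer or other peaks or ranks being counted. The median start difference became -28.3 with peaks at or above the median area. The other values, 21 with this one, kept their direction, with counts within 1.5 times. No paired analysis was possible because each list was called from both replicates together, and for the same reason no replicate could be left out. Reads behind single peaks are not given in the lists, so a missing peak says that none was called, not that the chromatin is closed.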
